A study of Rattus norvegicus with 25 samples.

Results

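Apln, which encodes the secreted peptide apelin, and Aplnr, which encodes its G protein-coupled receptor, were followed in the striatum of 25 female Sprague Dawley rats. Both genes were found by symbol in the deposited table of raw counts, and they are 2 of its 28909 gene names. Aplnr was picked because its level was lower with trapidil in these same libraries, so its values are given as a description and carry no test. Apln was added as the ligand of that receptor and was tested.

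All animals carried a lesion made with 6-hydroxydopamine (6-OHDA), a toxin that destroys dopamine neurons and is used to model Parkinson's disease, and all received levodopa, the precursor of dopamine. Levodopa at 6 mg/kg QD was given alone to 5 rats, with trapidil at 7.5 mg/kg BID to 10 rats and with trapidil at 15 mg/kg BID to 10 rats. The series title names levodopa with benserazide, a blocker of levodopa breakdown outside the brain. Dosing lasted 14 days, and the striatum on the lesioned side was collected on day 15, at a time the labels tie to 1 hour of dosing. Trapidil opposes the action of platelet-derived growth factor and inhibits phosphodiesterases. No vehicle group, unlesioned group or trapidil group without levodopa was analysed here, and the age of the animals was not given in the sources used here.

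Apelin is made as a longer precursor that proprotein convertases cut, and peptidases shorten or inactivate the secreted forms. Its receptor couples to inhibitory G proteins and binds beta-arrestins. In growing vessels of mice, apelin is a product of the endothelial tip cells that lead a sprout, while the receptor is found on venous and sprouting endothelium. In the brain the peptide and its receptor have been described in neurons as well as in vessels. A second peptide ligand of the same receptor, Apela, had no entry matched by name.

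Each library held 10838513 to 20532290 gene counts, with arm medians of 17572135 (levodopa alone), 16617608 (7.5 mg/kg) and 18792032 (15 mg/kg). Striatal neuron markers were abundant in every library, with 8980 to 16100 CPM (reads of a gene scaled to a common library total) summed over their list. The lowest sum, 8980 CPM, was that of levodopa replicate 2, and the next lowest was 11900 CPM. Levodopa replicate 2 stood apart from the other libraries of its arm: mitochondrially encoded genes took 17.3% of its counts and its endothelial markers were the highest of all 25 libraries. This library also had the highest marker sums for astrocytes (6930 CPM), oligodendrocytes (19800 CPM), microglia (586 CPM) and pericytes with smooth muscle (411 CPM). Values of Aplnr and Apln, and medians printed for vessel and other cell markers at 15 mg/kg, are given with and without it. Since each library is a piece of tissue, fewer cells of a type and less RNA per cell cannot be told apart.

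The promoter of Apln is printed because the gene is known to respond to oxygen supply, and because Apln and Aplnr are compared below with hypoxia genes. RefSeq held it on the GRCr8 assembly at chrX:132091197-132091496, on the minus strand, from 250 bases before to 50 bases after the annotated start of the gene. Capitals mark the GC boxes (GGGCGG, or CCGCCC where the box lies on the opposite strand).
Apln promoter: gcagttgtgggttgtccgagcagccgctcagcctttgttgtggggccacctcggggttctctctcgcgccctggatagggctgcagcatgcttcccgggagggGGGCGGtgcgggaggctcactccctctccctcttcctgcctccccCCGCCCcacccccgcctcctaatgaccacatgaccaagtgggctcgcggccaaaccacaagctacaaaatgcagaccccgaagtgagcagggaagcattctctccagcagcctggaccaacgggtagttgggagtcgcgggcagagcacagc

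The window was 65.0% G and C, against a median of 51.7% over all 33469 promoters of the same length, and it held 2 GC boxes, the motif that Sp1-type factors bind; 33.1% of those promoters held at least 1. The core of the hypoxia response element, searched as ACGTG or GCGTG on both strands, had 0 matches, while 41.6% of all promoters held 1 or more. The AP-1 motif TGANTCA had 0 matches (7.33% of promoters held one), and the E-box CANNTG had 3 (72.1% held one). These matches describe the letters of this window only. The rest of the gene and its introns were not searched, so a hypoxia element elsewhere would not be seen. Aplnr was named on the same assembly with the synonyms Agtrl1 and Apj.

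Aplnr was lower in both trapidil arms than with levodopa alone, and lowest in the 15 mg/kg arm. With levodopa alone the 5 libraries had 73, 124, 67, 90 and 90 Aplnr reads, or 4.02, 7.65, 4.00, 4.75 and 4.78 CPM, with a mean of 5.04 ± 1.51 CPM (SD, n = 5). In the 7.5 mg/kg arm the lowest, median and highest libraries had 2.31, 3.14 and 4.68 CPM, with a mean of 3.23 ± 0.754 CPM (SD, n = 10). In the 15 mg/kg arm they had 1.52, 2.03 and 2.76 CPM, with a mean of 2.19 ± 0.412 CPM (SD, n = 10). The highest library of the 15 mg/kg arm therefore lay below the lowest library of the levodopa arm, and 1 levodopa library, replicate 2, stood well above the other 4.

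**Figure D1:**
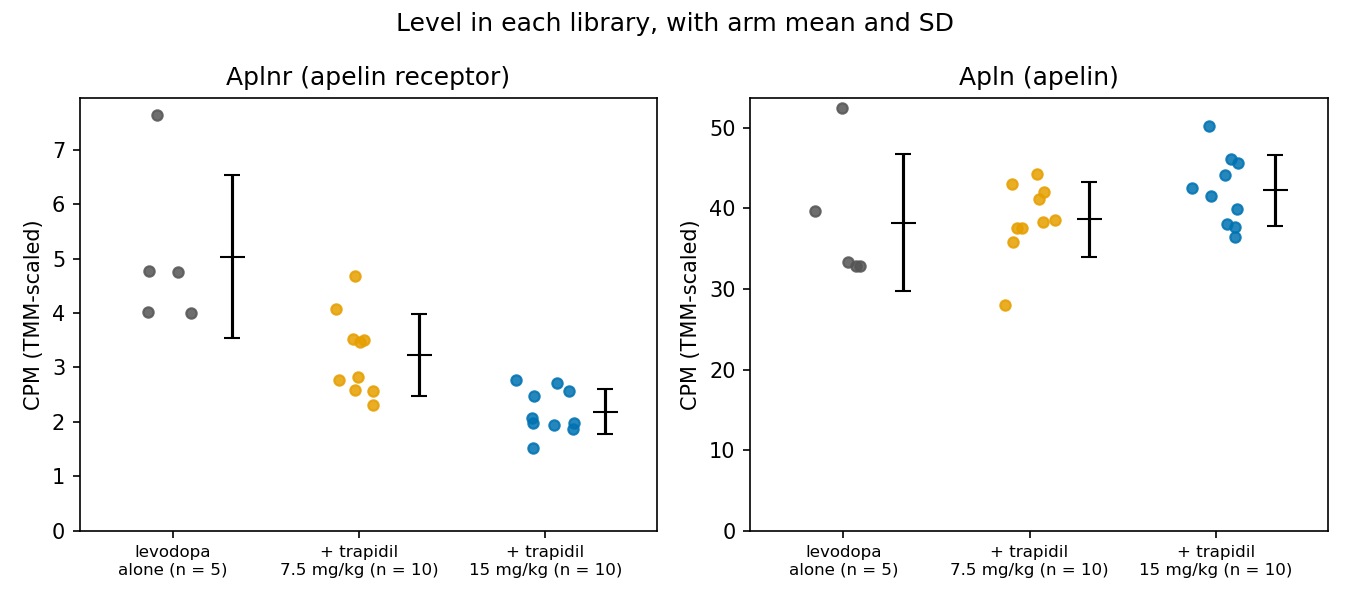
Aplnr and Apln in each library, in CPM after TMM scaling (linear axes from 0), by arm from levodopa alone to trapidil 7.5 and 15 mg/kg; points are libraries and bars the mean with its SD. Aplnr averaged 5.04, 3.23 and 2.19 CPM in the 3 arms with no overlap between 15 mg/kg and levodopa alone, while the ranges of Apln overlapped between all arms.

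Relative to levodopa alone, Aplnr at the 15 mg/kg dose was 0.436-fold, on the log2 scale -1.20 ± 0.17 (SE), and 10 of 10 libraries lay below the lowest levodopa library. Ranges separated in that direction in 0.410% of the 14142 genes tested, a share given only as background because Aplnr was picked on this contrast. The fold with the lower dose was 0.639, on the log2 scale -0.65 ± 0.17, and 8 of 10 libraries lay below the lowest levodopa library, with 10 of 10 below the levodopa mean. The receptor transcript thus reached the range of levodopa alone in 2 libraries of the lower dose and in 0 of the higher dose. Separated ranges in that direction were seen in 0.0636% of genes at 7.5 mg/kg. The higher of these 2 libraries, replicate 1, had 4.68 CPM from 51 reads. It held the fewest gene counts of all 25 libraries (10838513) and the highest cortical neuron marker sum (55.7 CPM). Without it the log2 value at 7.5 mg/kg was -0.71.

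Between the doses, Aplnr at 15 mg/kg was 0.682-fold of its level at 7.5 mg/kg, a log2 difference of -0.55 ± 0.15 (SE). The ranges overlapped, and 6 of 10 libraries at 15 mg/kg lay below the lowest at 7.5 mg/kg. Both contrasts against levodopa alone use the same 5 control libraries. The contrast between doses uses none of these 5, but it shares its trapidil libraries with both other contrasts. Aplnr was picked for its fall with trapidil across the arms, so its value between the doses is a description too. Without levodopa replicate 2 the log2 fold change was -0.999 ± 0.17 at 15 mg/kg and -0.45 ± 0.17 at 7.5 mg/kg, so both kept their sign and were nearer to 0.

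Aplnr rested on few reads, 67 to 124 per library with levodopa alone, 36 to 68 at 7.5 mg/kg and 29 to 53 at 15 mg/kg. The counting error alone, at the mean read count of each arm, is 10.6% with levodopa alone, 13.9% at 7.5 mg/kg and 15.9% at 15 mg/kg. The observed SDs were 29.9% with levodopa alone, 23.3% at 7.5 mg/kg and 18.8% at 15 mg/kg, all of the mean CPM. In the 15 mg/kg arm the libraries thus varied little more than counting does, and in the levodopa arm they varied more; without replicate 2 the SD of the other 4 levodopa libraries was 9.95% of their mean, no more than their counting error of 11.2%.

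Apln, the ligand, did not pass the test in any comparison. With levodopa alone it had 33.3, 52.5, 32.9, 39.7 and 32.8 CPM, with a mean of 38.3 ± 8.48 CPM (SD, n = 5). The lowest, median and highest libraries were at 28.0, 38.5 and 44.3 CPM at 7.5 mg/kg, with a mean of 38.7 ± 4.62 CPM (SD, n = 10). At 15 mg/kg they were at 36.4, 42.0 and 50.2 CPM, with a mean of 42.2 ± 4.36 CPM (SD, n = 10). Levodopa replicate 2 had the most Apln of all 25 libraries, as it had the most Aplnr, and the ranges of all 3 arms overlapped.

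The log2 fold change of Apln at 15 mg/kg against levodopa alone was 0.14 ± 0.10 (SE), with an adjusted p of 0.458 by edgeR's quasi-likelihood test with Benjamini-Hochberg adjustment. Its 95% interval ran from -0.07 to 0.35, or 0.955-fold to 1.28-fold, and 7 of 10 libraries lay above the levodopa mean. Its log2 fold change at 7.5 mg/kg was 0.02 ± 0.10 (edgeR adjusted p = 0.964), with an interval from -0.19 to 0.23, or 0.874-fold to 1.17-fold. These intervals leave room for changes of that size in either direction. With levodopa replicate 2, the library highest in Apln, left out, the log2 value was 0.29 ± 0.09 at 15 mg/kg (edgeR adjusted p = 0.2) and 0.16 ± 0.09 at 7.5 mg/kg (edgeR adjusted p = 0.8), so the size at 15 mg/kg was over 1.5 times larger and still did not pass after adjustment over all genes tested. The other 4 levodopa libraries averaged 34.7 ± 3.37 CPM (SD, n = 4), beside 42.2 ± 4.36 CPM at 15 mg/kg (SD, n = 10). The exact permutation test given below was not run without that library, so Apln is not shown to be unchanged. In the same fit 185 of 14142 genes (1.31%) passed at 15 mg/kg against levodopa alone, 43 higher (0.304%) and 142 lower (1.00%), and 4 (0.0283%) at 7.5 mg/kg. The count of 185 ran from 9 (without levodopa replicate 3) and 20 (without levodopa replicate 2) to 894 (without levodopa replicate 4) as levodopa libraries were left out 1 at a time, and from 51 to 437 without 1 library of the 15 mg/kg arm, while Apln did not pass in any of those fits.

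Between the doses the log2 difference of Apln, 15 mg/kg over 7.5 mg/kg, was 0.13 ± 0.08 (edgeR adjusted p = 0.999), with 7 of 10 libraries at 15 mg/kg above the mean at 7.5 mg/kg; 4 of 14142 genes (0.0283%) passed in that comparison. An exact two-sided permutation test of log2 CPM over libraries gave p = 0.168 at 15 mg/kg and p = 0.816 at 7.5 mg/kg against levodopa alone, and p = 0.0934 between the doses. After adjustment over these 3 comparisons the values were 0.252, 0.816 and 0.252. Apln had 410 to 1002 reads in a library, and its counting error of 3.61% to 4.00% was small beside SDs of 22.2% with levodopa alone, 11.9% at 7.5 mg/kg and 10.3% at 15 mg/kg.

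The strand setting of the counting was not given in the sources used here. On GRCr8 the span of the long non-coding RNA gene LOC134484146 overlaps that of Apln, and their strands and exons were not compared. The counts were made on Rnor_6.0, so whether reads of that RNA were counted for Apln is not known. On GRCr8 Aplnr overlaps no annotated gene.

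Setting receptor reads against ligand reads of the same library removes the scaling between libraries. This ratio was computed after the values of both genes had been seen and, like Aplnr itself, is a description. Per 100 Apln reads there were 12.1, 14.6, 12.1, 12 and 14.6 Aplnr reads with levodopa alone, a mean of 13.1 ± 1.38 (SD, n = 5). In the 7.5 mg/kg arm the lowest, median and highest were 5.99, 8.55 and 12.4, with a mean of 8.43 ± 2.02 (SD, n = 10). In the 15 mg/kg arm they were 3.66, 5.03 and 7.46, with a mean of 5.21 ± 1.08 (SD, n = 10).

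All 10 libraries at 15 mg/kg and 9 of 10 at 7.5 mg/kg lay below the lowest levodopa ratio. Levodopa replicate 2, which was high in both genes, did not stand apart in the ratio: its 14.6 was matched by replicate 5. Between the doses, 8 of 10 libraries at 15 mg/kg lay below the lowest at 7.5 mg/kg.

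**Figure D2:**
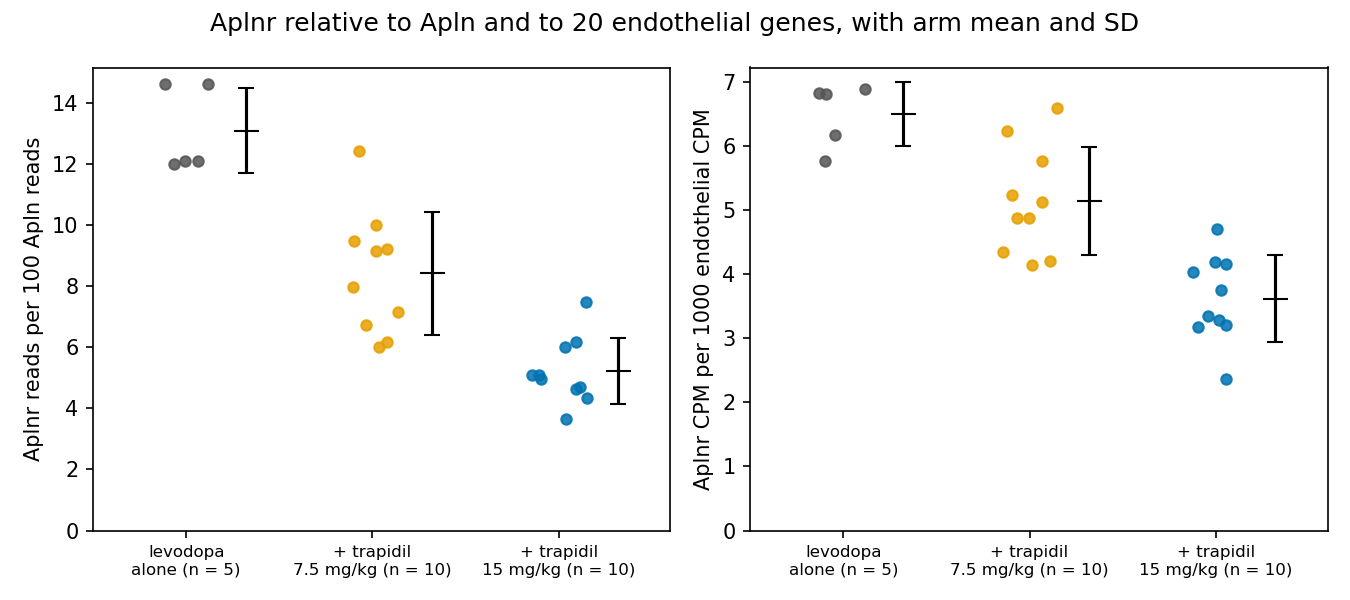
Aplnr set against a second measure of the same library, by arm from levodopa alone to trapidil 15 mg/kg: Aplnr reads per 100 Apln reads, and Aplnr CPM per 1000 CPM summed over 20 endothelial genes (linear axes from 0; points are libraries, bars the mean with its SD). In both ratios all 10 libraries at 15 mg/kg lie below the lowest levodopa library, and levodopa replicate 2 lies with the rest of its arm.

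Aplnr is known as a gene of endothelium, so it was set beside 22 markers of endothelial cells, of which 20 were in the table and 19 were tested. Claudin-5 (Cldn5), a defining tight junction gene of brain vessels, had 0 reads in all libraries of the table, and Pecam1 and Abcb1a had no entry matched by name. The summed level of the list was 516 to 654 CPM at 15 mg/kg, against 650 to 1120 CPM with levodopa alone, and these ranges overlapped only at their edge. In the 7.5 mg/kg arm it was 550 to 750 CPM. The highest value, 1120 CPM, was that of levodopa replicate 2.

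At 15 mg/kg against levodopa alone 3 of the 19 genes fell and 0 rose in edgeR, where 1.00% of all genes tested fell. DESeq2 called 9 of the 19 lower (3.07% of all genes) and limma-voom 2 (1.22% of all genes), Sox18 and Slc16a1 but not Slco1a4; 17 were lower at an unadjusted p under 0.05 (11.2% of all genes). Sox18, an endothelial transcription factor, had 8.63 ± 1.30 CPM at 15 mg/kg and 14.5 ± 6.09 CPM with levodopa alone (SD, n = 10 and 5), a log2 difference of -0.74 ± 0.15 (edgeR adjusted p = 0.0217). Slco1a4, an organic anion transporter of the blood-brain barrier, had one of -0.47 ± 0.12 (edgeR adjusted p = 0.0463). Slc16a1, the monocarboxylate transporter MCT1, had one of -0.36 ± 0.09 (edgeR adjusted p = 0.049). In each of the 3 genes 10 of 10 libraries at 15 mg/kg lay below the levodopa mean. Leaving out 1 library at a time, the call of Sox18 was kept in 14 of 15 fits and ended without levodopa replicate 2, while that of Slco1a4 was kept in 4 and that of Slc16a1 in 3.

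Over the list all 19 log2 fold changes at 15 mg/kg were negative, with a median of -0.36, against a median of 0.00 and 49.8% negative over all genes tested. With the lower dose 18 of 19 were negative with a median of -0.35 and 0 passed in edgeR; 14 were lower at an unadjusted p under 0.05 (6.64% of all genes), 1 passed in DESeq2 and 0 in limma-voom. Between the doses 12 of 19 were negative with a median of -0.03, and 0 passed in any of the 3 tools. In edgeR 1 was lower at an unadjusted p under 0.05 (2.14% of all genes). The value of Aplnr itself between the doses was -0.55, and its difference from the list was not tested.

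Without levodopa replicate 2, 0 of the 19 genes passed in either comparison with levodopa alone, and the medians were -0.17 at 15 mg/kg and -0.14 at 7.5 mg/kg. Sox18 then had a log2 change of -0.45 (edgeR adjusted p = 0.105). The medians were thus nearer to 0 while most genes kept their sign: 17 of 19 genes at 15 mg/kg and 16 of 19 at 7.5 mg/kg were negative.

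Per 1000 CPM of the 20 endothelial genes, Aplnr stood at 6.18, 6.83, 5.77, 6.81 and 6.89 CPM with levodopa alone, a mean of 6.50 ± 0.497 (SD, n = 5). The lowest, median and highest libraries were at 4.14, 5.00 and 6.60 at 7.5 mg/kg, with a mean of 5.14 ± 0.843, and at 2.36, 3.55 and 4.70 at 15 mg/kg, with a mean of 3.62 ± 0.677 (SD, n = 10 each). Relative to the endothelial genes, 10 of 10 libraries at 15 mg/kg and 8 of 10 at 7.5 mg/kg lay below the lowest levodopa library. With the endothelial score of each library added to the fit, the log2 fold change of Aplnr was -0.79 ± 0.17 at 15 mg/kg and -0.29 ± 0.16 at 7.5 mg/kg against levodopa alone. Between the doses it was -0.50 ± 0.12 with the score, close to the -0.55 without it.

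The score is the mean over the tested endothelial genes of their standardised log2 CPM, and it differs between the arms, so the fit with it splits a shared difference. For Apln the same fit gave 0.37 ± 0.11 at 15 mg/kg (edgeR adjusted p = 0.310) and 0.21 ± 0.10 at 7.5 mg/kg (edgeR adjusted p = 0.655). How much of either value belongs to the amount of vessel in a sample was not tested.

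Within arms, Aplnr, Apln and the endothelial score were positively correlated over the 25 libraries, as deviations of log2 CPM from the arm mean. These 3 relations were tested by two-sided permutation within arms and adjusted over the 3. Aplnr and the endothelial score had r = 0.73 (permutation p = 0.00175, adjusted p = 0.00525) and a Spearman correlation of 0.56 (permutation p = 0.00521). Aplnr and Apln had r = 0.48 (permutation p = 0.0446, adjusted p = 0.0446) and a Spearman correlation of 0.37 (permutation p = 0.0833). Apln and the endothelial score had r = 0.57 (permutation p = 0.0367, adjusted p = 0.0446) and a Spearman correlation of 0.40 (permutation p = 0.0617).

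All 3 relations were weaker without levodopa replicate 2, left out alone or with 1 other library. Without the 2 libraries farthest from the median, of which levodopa replicate 2 was always 1, r was 0.41 for Aplnr and the score (adjusted permutation p = 0.242), 0.28 for Aplnr and Apln (0.354) and 0.10 for Apln and the score (0.635). Without levodopa replicate 2 alone, r was 0.55 for Aplnr and the score (adjusted permutation p = 0.0418), 0.22 for Aplnr and Apln and 0.22 for Apln and the score (both 0.366). The Spearman correlation of Aplnr and the score was then 0.46 and did not pass (permutation p = 0.0384, adjusted p = 0.115). Within the 7.5 mg/kg arm alone Aplnr and the score had r = 0.73 (permutation p = 0.0168, adjusted p = 0.101 over 6 relations). Within the 15 mg/kg arm alone they had r = 0.21 (permutation p = 0.578, adjusted p = 0.729). Aplnr and Apln had r = 0.21 within the 7.5 mg/kg arm and 0.18 within the 15 mg/kg arm (adjusted permutation p = 0.729 in each). For Apln and the score r was 0.31 at 7.5 mg/kg (adjusted permutation p = 0.729) and 0.07 at 15 mg/kg (0.862).

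**Figure D3:**
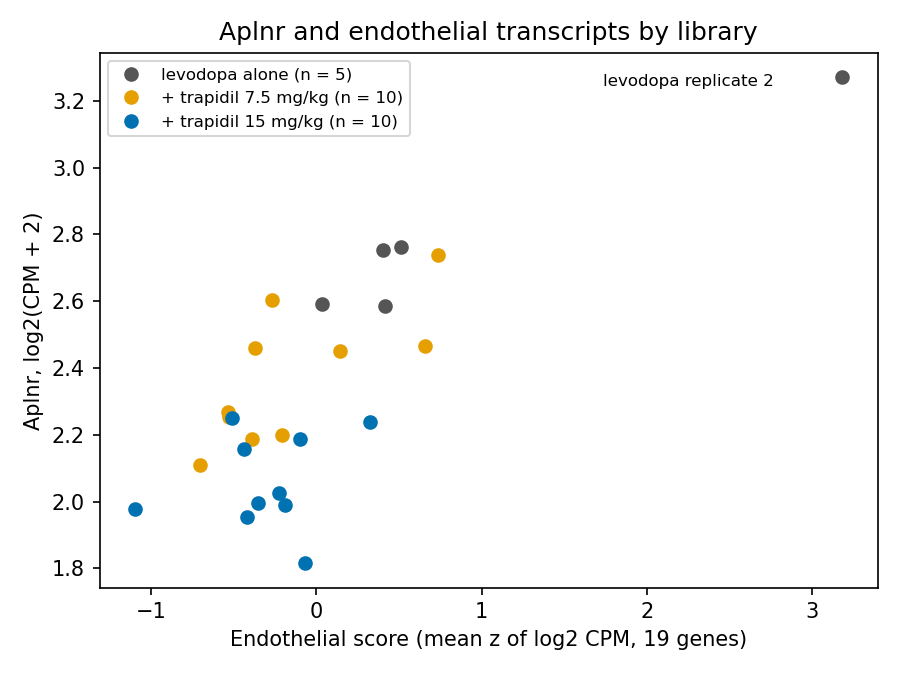
Aplnr against the endothelial score in each of the 25 libraries (vertical axis, log2 of CPM plus 2, and horizontal axis, mean of standardised log2 values over 19 genes). Colours mark the arms. Levodopa replicate 2 lies far to the right with a score of 3.18, and libraries at 15 mg/kg lie low in Aplnr.

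Markers of other cells differed between the arms too. The 10 mature oligodendrocyte markers were all lower at 15 mg/kg than with levodopa alone, with a median log2 value of -0.61. All 10 were lower at an unadjusted p under 0.05 (11.2% of all genes), 7 in DESeq2 (3.07%) and 5 in limma-voom (1.22%). In edgeR 5 of them fell (1.00% of all genes), among them the myelin gene Cnp (-0.69 ± 0.17, edgeR adjusted p = 0.0383). Opalin (-0.74), Ermn (-0.58) and Mal (-0.56), all of myelin or its cells, fell too. Without levodopa replicate 2 the median was -0.51 with 10 of 10 lower and 0 passing in edgeR. None of the 5 edgeR calls held without levodopa replicate 3 either. Their summed level was 10800 to 19800 CPM with levodopa alone, 7450 to 16500 CPM at 7.5 mg/kg and 6590 to 13900 CPM at 15 mg/kg. Between the doses the median of that list was -0.30, with 0 of 10 called in edgeR, DESeq2 or limma-voom. In edgeR 7 were lower at an unadjusted p under 0.05, where 2.14% of all genes were. With an oligodendrocyte score in the fit, the log2 value of Aplnr was -1.03 ± 0.22 at 15 mg/kg and -0.55 ± 0.18 at 7.5 mg/kg against levodopa alone, and -0.48 ± 0.16 between the doses. The part of these cells in the values of Aplnr was not tested beyond these fits.

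Of 7 oligodendrocyte precursor genes, 1 fell in edgeR at 15 mg/kg against levodopa alone (1.00% of all genes). This was the lineage factor Sox10 (-0.63, edgeR adjusted p = 0.0464), and its call was kept in 4 of 15 fits that left out 1 library. DESeq2 called 2 of the 7 lower (3.07% of all genes) and limma-voom 1 (1.22%), and 5 were lower at an unadjusted p under 0.05 (11.2%). Astrocyte markers had a median of -0.20 at 15 mg/kg against levodopa alone, with 0 of 8 called in edgeR, DESeq2 or limma-voom. Of these, 3 were lower at an unadjusted p under 0.05 (11.2% of all genes). Striatal neuron markers had a median of 0.09, with 0 of 10 called in any of those tools and 0 at an unadjusted p under 0.05. Small lists of tissue beside the striatum varied widely: cortical neuron markers summed to 4.42 to 43.1 CPM with levodopa alone, 2.57 to 55.7 CPM at 7.5 mg/kg and 2.80 to 5.16 CPM at 15 mg/kg. Of 6 ependymal and choroid plexus genes, the choroid gene Ttr fell, with 0.128 ± 0.190 CPM at 15 mg/kg and 4.86 ± 10.4 CPM with levodopa alone (SD, n = 10 and 5, edgeR adjusted p = 0.0217), and did not pass without levodopa replicate 2 (adjusted p = 0.846). The other 5 tested genes of that list were higher, 3 of them at an unadjusted p under 0.05 (8.26% of all genes). The list summed to medians of 3.22 CPM with levodopa alone, 14.8 CPM with the lower and 21.9 CPM with the higher dose. Microglia markers had a median of -0.26 at 15 mg/kg with 6 of 7 lower and 0 called in edgeR, DESeq2 or limma-voom. Of the 7, 3 were lower at an unadjusted p under 0.05 (11.2% of all genes). Leaving out levodopa replicate 2, the medians at 15 mg/kg were -0.04 for astrocyte markers (4 of 8 lower), -0.06 for microglia markers (5 of 7 lower) and -0.18 for oligodendrocyte precursor genes, and that of striatal neuron markers turned to -0.07.

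Within the vasculature, the lists closest to the known sites of the pair gave 0 calls in edgeR. All 9 tested tip cell genes, the list that in growing vessels goes with Apln, were lower at 15 mg/kg and at 7.5 mg/kg than with levodopa alone, with medians of -0.36 and -0.33. At 15 mg/kg 3 were lower at an unadjusted p under 0.05 (11.2% of all genes), 2 in DESeq2 (3.07%) and 1 in limma-voom (1.22%). The lower dose had 2 lower at an unadjusted p under 0.05 (6.64% of all genes), with 0 passing in DESeq2 or limma-voom. Unc5b, a netrin receptor of vessel sprouts, had 72.6 ± 11.1 CPM at 15 mg/kg and 101 ± 13.8 CPM with levodopa alone (SD, n = 10 and 5), a log2 change of -0.48 ± 0.13 (edgeR adjusted p = 0.0567, limma-voom adjusted p = 0.0494). Kdr, the main receptor for vascular endothelial growth factor, had -0.58 ± 0.17 (edgeR adjusted p = 0.075) and Cd34, a sialomucin of endothelium, had -0.55 ± 0.19 (edgeR adjusted p = 0.11).

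Of 6 tested venous genes, 5 were lower at 15 mg/kg than with levodopa alone, with a median of -0.35 and 0 passing in edgeR. Of these genes, 3 were lower at an unadjusted p under 0.05 (11.2% of all genes), 2 in DESeq2 (3.07%) and 0 in limma-voom (1.22%). Vwf, which encodes von Willebrand factor, had a log2 change of -0.58 ± 0.16 (edgeR adjusted p = 0.0632), and Ephb4, the ephrin receptor that marks veins, had -0.51 ± 0.15 (edgeR adjusted p = 0.0736). Of 7 arterial genes 5 were lower, with a median of -0.20, led by the gap junction genes Gja5 (-0.94 ± 0.27, edgeR adjusted p = 0.0678) and Gja4 (-0.67 ± 0.20, edgeR adjusted p = 0.0736). At an unadjusted p under 0.05, 3 of the 7 were lower (11.2% of all genes), while 1, Gja4, passed in DESeq2 (3.07% of all genes) and 0 in limma-voom. Mural cell genes, of pericytes and smooth muscle, had a median of -0.21 with 11 of 12 lower and 0 called in edgeR. Of the 12, 4 were lower at an unadjusted p under 0.05 (11.2% of all genes), 1 in DESeq2 (3.07%) and 0 in limma-voom (1.22%).

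Without levodopa replicate 2 the medians at 15 mg/kg were -0.18 for tip cell, -0.17 for venous, -0.05 for arterial and -0.04 for mural genes. Between the doses they were -0.06 for tip cell, -0.09 for venous, -0.10 for arterial and -0.01 for mural genes, and Aplnr itself was at -0.55. Single vessel genes had values between the doses that were further from 0. Gja5 averaged 0.858 CPM with levodopa alone, 0.629 CPM with the lower and 0.440 CPM with the higher dose, and its log2 value between the doses was -0.50 ± 0.24 (edgeR adjusted p = 0.999). Sox18 averaged 14.5 CPM with levodopa alone, 10.6 CPM with the lower and 8.63 CPM with the higher dose, and its value between the doses was -0.30 ± 0.13 (edgeR adjusted p = 0.999), with 10 of 10 libraries at 15 mg/kg below the mean at 7.5 mg/kg. These were singled out after their values were seen. None of these differences between Aplnr and a list was tested, and Aplnr was picked for its fall with trapidil.

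**Figure D4:**
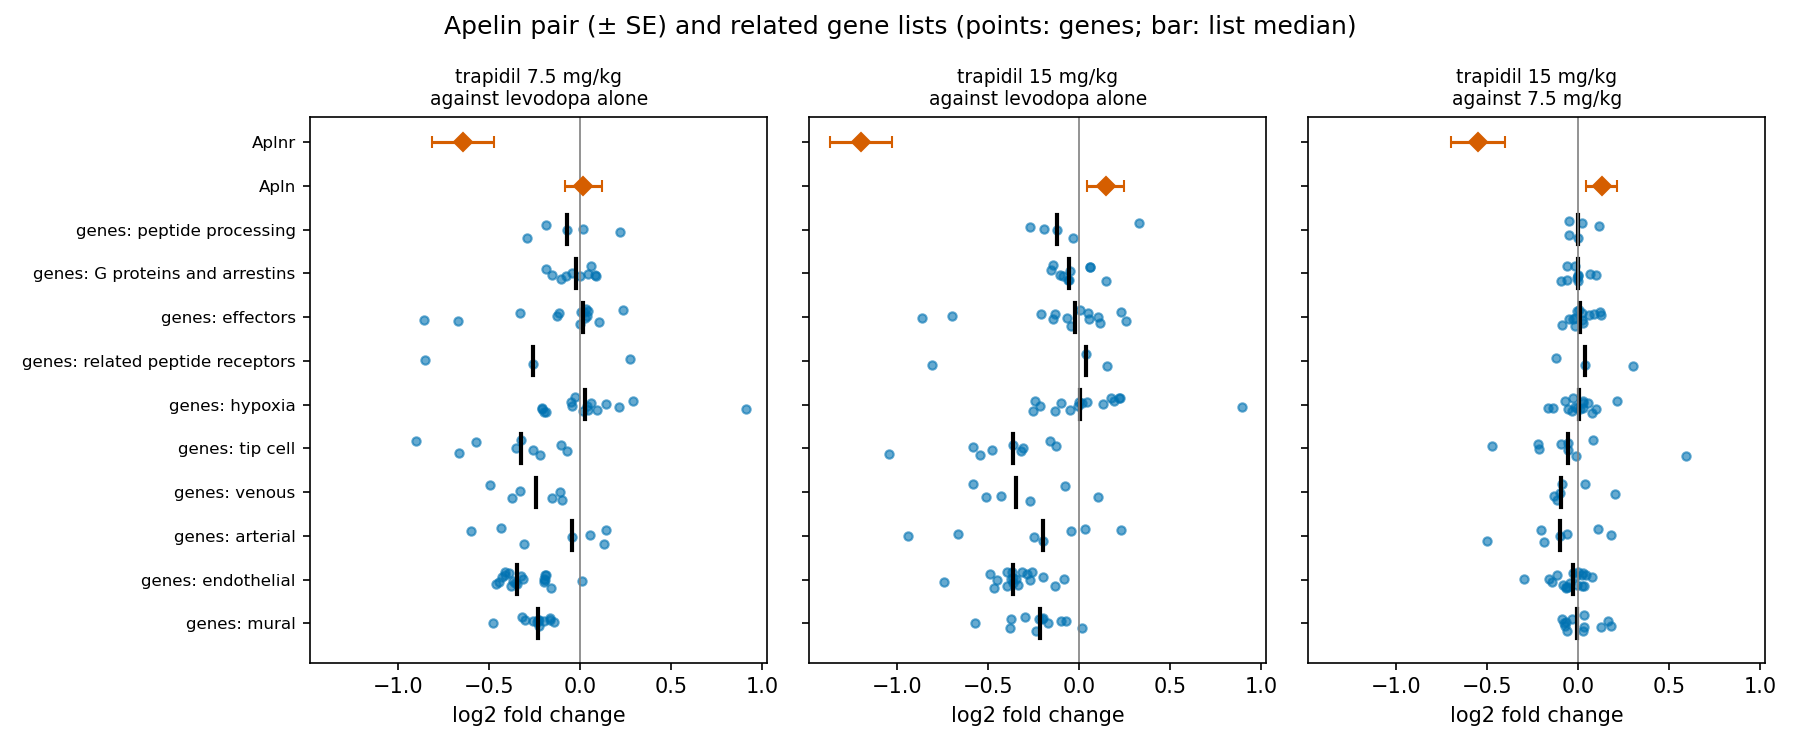
Log2 fold changes of Aplnr, Apln and the lists of pathway, hypoxia and vessel genes in the 3 comparisons (7.5 mg/kg and 15 mg/kg each over levodopa alone, and 15 mg/kg over 7.5 mg/kg). In the lists, points are genes and bars the median. Endothelial, tip cell and mural medians lie below 0 against levodopa alone and near 0 between the doses, while Aplnr lies at -0.65, -1.20 and -0.55.

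The rest of the apelin pathway was read from 38 genes chosen for their roles, of which 37 were in the table and 32 were tested. None passed in edgeR in any of the 3 comparisons. At 15 mg/kg against levodopa alone 2 were higher and 4 lower at an unadjusted p under 0.05, shares near the 8.26% and 11.2% of all genes tested, and 1, Bdkrb2, passed as lower in DESeq2 and in limma-voom. With the lower dose against levodopa alone 1 was higher and 7 lower at an unadjusted p under 0.05 (5.02% and 6.64% of all genes). Between the doses 1 was higher (1.49% of all genes), and 0 passed in DESeq2 or limma-voom in either comparison. The median log2 fold change of the 32 genes was -0.05 at 15 mg/kg and -0.00 at 7.5 mg/kg, beside 0.00 over all genes tested, with values from -0.86 to 0.33 at 15 mg/kg.

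Among enzymes that make or degrade apelin, Mme, which encodes neprilysin, had 31.8 ± 5.55 CPM at 15 mg/kg and 25.2 ± 9.86 CPM with levodopa alone (SD, n = 10 and 5), a log2 change of 0.33 ± 0.17 (edgeR adjusted p = 0.274). Prcp, a carboxypeptidase that trims the C terminus of apelin, had -0.27 ± 0.14 (edgeR adjusted p = 0.284). Furin, a proprotein convertase, had -0.12 ± 0.09 (edgeR adjusted p = 0.495). In the fit without levodopa replicate 2 the values were 0.14 for Mme, -0.07 for Prcp and -0.17 for Furin. Neither the making nor the breakdown side held a gene past the threshold.

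The transducers that sit directly under the receptor gave 0 calls among 10 genes in edgeR, DESeq2 and limma-voom at 15 mg/kg. In edgeR 1 was lower at an unadjusted p under 0.05 (11.2% of all genes). Gna13, which encodes a G protein alpha subunit, had 68.0 ± 4.98 CPM at 15 mg/kg and 75.9 ± 14.0 CPM with levodopa alone (SD, n = 10 and 5), a log2 change of -0.16 ± 0.07 (edgeR adjusted p = 0.223). The beta-arrestin gene Arrb2 had -0.14 ± 0.08 (edgeR adjusted p = 0.327), and Gnai2, which encodes an inhibitory G protein subunit, had -0.11 ± 0.08 (edgeR adjusted p = 0.455). Gnaq, the subunit that activates phospholipase C, had 0.15 ± 0.09 (edgeR adjusted p = 0.36). In the fit without levodopa replicate 2 all were nearer to 0: -0.03 for Gna13, -0.08 for Arrb2, 0.006 for Gnai2 and 0.06 for Gnaq.

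Further downstream, the Kruppel-like factors Klf2 and Klf4, which in endothelium lie below apelin receptor signalling and respond to blood flow, were the effectors with the lowest values. Klf2 had 11.1 ± 3.79 CPM at 15 mg/kg, against 20.3 ± 9.02 CPM with levodopa alone (SD, n = 10 and 5), a log2 difference of -0.86 ± 0.32 (edgeR adjusted p = 0.138). Klf4 had 8.22 ± 1.51 CPM at 15 mg/kg, against 13.4 ± 7.30 CPM with levodopa alone, a log2 change of -0.70 ± 0.24 (edgeR adjusted p = 0.108). The values at 7.5 mg/kg were -0.86 ± 0.33 for Klf2 (edgeR adjusted p = 0.339) and -0.67 ± 0.24 for Klf4 (edgeR adjusted p = 0.313). Both had 10 of 10 libraries at 15 mg/kg below the levodopa mean, yet without levodopa replicate 2 the values were -0.60 for Klf2 and -0.32 for Klf4. Mef2a, a transcription factor upstream of Klf2, had 0.23 ± 0.10 at 15 mg/kg (edgeR adjusted p = 0.218), and 0.13 without levodopa replicate 2.

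Receptors of related peptides were mostly too low to test: Agtr1a, Agtr1b and Agtr2, the angiotensin receptors, and Bdkrb1 did not pass the filter on low counts. Bdkrb2, the bradykinin B2 receptor, had 1.35 ± 0.378 CPM with levodopa alone (SD, n = 5), 0.749 ± 0.175 CPM with the lower dose and 0.768 ± 0.257 CPM with the higher dose (SD, n = 10 each). Its log2 fold change at 15 mg/kg was -0.81 ± 0.23 (edgeR adjusted p = 0.0632), just outside the threshold, and inside it in DESeq2 (adjusted p = 0.0392) and limma-voom (adjusted p = 0.0472). Unlike Aplnr, Bdkrb2 had a value between the doses near 0 (0.04 ± 0.20). The chemokine receptors Ackr3 and Cxcr4 had 0.04 ± 0.15 and 0.15 ± 0.33 at 15 mg/kg against levodopa alone (edgeR adjusted p = 0.923 and 0.847).

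Hypoxia genes, known regulators and companions of Apln, were split: 8 of 16 were higher and 8 lower at 15 mg/kg than with levodopa alone, with a median of 0.01 and 0 called in edgeR, DESeq2 or limma-voom. Of these, 2 were higher and 2 lower at an unadjusted p under 0.05 (8.26% and 11.2% of all genes). Epas1, which encodes HIF-2 alpha and is abundant in endothelium, had a log2 change of -0.26 ± 0.09 (edgeR adjusted p = 0.133), and Egln1, the oxygen-sensing prolyl hydroxylase PHD2, had -0.22 ± 0.10 (edgeR adjusted p = 0.209). Ldha, the lactate dehydrogenase A gene, had 0.17 ± 0.07 (edgeR adjusted p = 0.195), and Vegfa, which encodes vascular endothelial growth factor A, had 0.22 ± 0.10 (edgeR adjusted p = 0.238). In the fit without levodopa replicate 2 the values were -0.09 for Epas1, -0.17 for Egln1, 0.07 for Ldha and 0.24 for Vegfa. The list median was then 0.04.

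The genes most like Aplnr in their deviations within arms over the 25 libraries, among 12286 genes with a mean of at least 1 CPM, were led by Clec14a, a C-type lectin of endothelium, with Pearson's r of 0.81. It was followed by Pltp, the phospholipid transfer protein gene (0.79), Vangl2, a planar cell polarity gene (0.79), Sez6l (0.78) and Plce1, a phospholipase C gene (0.76). Leaving out levodopa replicate 2, these values were 0.75, 0.67, 0.72, 0.69 and 0.62. Clec14a averaged 4.98 CPM at 15 mg/kg, against 7.49 CPM with levodopa alone, a log2 difference of -0.58 ± 0.15 (edgeR adjusted p = 0.0439), a call kept in 2 of 15 fits that left out 1 library. In the 7.5 mg/kg arm it averaged 4.63 CPM, and its difference between the doses was 0.11 ± 0.12, so the gene nearest to Aplnr within arms did not share its order of the doses.

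For Apln the most alike were Nadk2, a mitochondrial NAD kinase gene (r of 0.80), Tspan12, a tetraspanin of retinal vessel growth (0.78), the ribosomal protein gene Rps24 (0.77), Kansl3 (0.77) and the ribosomal protein gene Rpl14 (0.76). Leaving that library out, they were at 0.67, 0.64, 0.62, 0.65 and 0.61. These correlations describe 25 libraries that share their depth and dissection, and they carry no test.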

How the data were processed

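Polyadenylated RNA of the striatum was sequenced in 25 libraries, taken as 1 per rat. The authors deposited raw read counts per gene, which the submitters' processing notes tie to FastQC, STAR, HTSeq and the Rnor_6.0 build; versions, annotation and strand setting are not given in the sources used here. The labels do not say library by library that each is a separate animal and, if they are not, p-values measure only the spread between these samples.

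No pair of libraries within an arm agreed within sampling noise. Genes were kept by filterByExpr of edgeR 4.0.16 (14142 kept) and scaled by TMM. The edgeR quasi-likelihood test took in all 25 libraries, with arm as factor and 3 two-sided contrasts; p-values were adjusted over all genes (Benjamini-Hochberg) and called at 0.05. Standard errors come from the fold change over the root of F. CPM were computed from the counts; log2 CPM used a pseudocount of 2. Relations used 1e+05 permutations within arms (scipy 1.17.1), and differences of Apln an exact permutation test between arms. DESeq2 1.42.0 and limma 3.58.1 were alternatives. The steps were tested on simulated data. Counting errors are Poisson and cover counting only.

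The members and lists were chosen with earlier results of these data known. Named list members were those called in a comparison, or up to 4 with the smallest p at 15 mg/kg; a few members that this rule names are not reported here. The genes most like Aplnr or Apln were the 5 with the highest correlation. No batch was given, so no value within batches exists. Replicate numbers showed no clear pairing of libraries, but the 5, 5 and 10 pairs compared are too few to exclude one.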

Additional observations from a re-analysis of the deposited data

Results flagged for a closer look

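Of 15 groups of values examined for a library far from the rest of its arm (Aplnr, Apln, the endothelial score and both ratios of Aplnr, by arm), 3 had one; chance alone flags about 1 in 20 groups. Aplnr in levodopa replicate 2 was 7.65 CPM, and the nearest of the other 4 libraries was 4.78 CPM. The endothelial score of the same library was 3.18, and the nearest was 0.512; this library also had the highest Apln and the largest mitochondrial share, and the part of these in its Aplnr value was not tested. Apln in the 7.5 mg/kg replicate 2 was 28.0 CPM, and the nearest of the other 9 was 35.8 CPM, a gap of 0.479 of the arm's range that only just passed the critical value of 0.466.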

How the results depend on the processing

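Aplnr stayed negative in every fit run: -1.27 to -0.79 at 15 mg/kg and -0.72 to -0.29 at 7.5 mg/kg against levodopa alone, where the values nearest 0 (-0.79 and -0.29) are those with the endothelial score, and -0.59 to -0.48 between the doses. Leaving out 1 library gave -1.27 to -0.999, -0.72 to -0.45 and -0.59 to -0.49. All these fits reuse the libraries in which Aplnr was picked for its fall, so the kept sign is no separate evidence. Apln passed in none: it was 0.09 to 0.37 at 15 mg/kg (adjusted p 0.129 to 0.775; 0.10 to 0.29 leaving out 1 library, the highest without levodopa replicate 2) and 0.08 to 0.15 between the doses (adjusted p 0.252 to 1). At 7.5 mg/kg it was -0.0322 to 0.158 leaving out 1 library and -0.0363 with the replicate block, so its sign was not fixed.

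Counts of genes called changed more. At 15 mg/kg against levodopa alone (185) they were 655 in DESeq2, 448 with only those arms in the fit, 0 with the replicate block, 4 with the endothelial and 8 with the oligodendrocyte score, and 9 to 894 leaving out 1 library (9 without levodopa replicate 3, 20 without replicate 2, 894 without replicate 4). At 7.5 mg/kg against levodopa alone (4) they were 7 with no low-count filter, 53 in DESeq2, 1 with only those arms, 0 with the replicate block and 1 to 70 leaving out 1 library (70 without the 7.5 mg/kg replicate 1). Between the doses (4) they were 4 to 8. Fits without both levodopa replicate 2 and replicate 1 of the 7.5 mg/kg arm, chosen after seeing the data, gave 76, 27 and 9 in these comparisons. The causes were not tested.

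With the replicate block Aplnr was -1.21 ± 0.21, -0.66 ± 0.21 and -0.55 ± 0.17, and Apln 0.09, -0.0363 and 0.12, in the same order of comparisons. Libraries sharing a number deviated together in 3 of 5, 2 of 5 and 3 of 10 pairs (r above 0.1). In 1, 1 and 2 of the pairs a library correlated best with its own number. These few pairs showed no clear pairing and cannot exclude one.

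With a pseudocount of 0.5 the relation of Aplnr and Apln had r = 0.45 and that of Apln and the endothelial score r = 0.57, both with an adjusted permutation p of 0.0502. Without the 2 farthest libraries r was 0.28 for Aplnr and Apln, 0.41 for Aplnr and the score and 0.10 for Apln and the score. Leaving out levodopa replicate 2 alone, also chosen after seeing the data, gave 0.22 for Aplnr and Apln and 0.22 for Apln and the score (0.215).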
